A study of Homo sapiens with 12 samples.

Results

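The cholesterol genes described here are 32 genes of sterol synthesis, sterol transport and efflux and of the SREBP system that controls them, picked from the count table by gene symbol. They are 32 of the 20114 genes in the table, and all 32 had enough reads to be among the 13872 genes tested. Cells make cholesterol from acetyl-CoA through mevalonate, squalene and lanosterol. SREBP transcription factors switch on nearly all of these enzymes: SCAP escorts the SREBP precursors out of the endoplasmic reticulum when sterol is scarce, and INSIG proteins hold SCAP back when sterol is plentiful. LXR receptors sense oxysterols and turn on efflux pumps, so the pathway has a supply arm and a disposal arm. The members were taken in 5 groups by role, namely 8 genes of the mevalonate steps, 9 of the squalene and sterol steps, 5 of SREBP control, 5 of intracellular sterol transport and storage, and 5 of LXR, efflux and receptor decay.

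RNA was sequenced from T47D, a human luminal breast carcinoma cell line that carries progesterone receptor. Cells were treated with vehicle, 100 pM progestin or 10 nM progestin (the labels do not name the compound), for 6 h or 18 h, which gives 6 groups of 2 libraries numbered 1 and 3. All groups, vehicle included, had attached in medium with 8% charcoal-stripped serum without phenol red and had then been starved for 24 to 48 h in 0.1% of the same serum. All libraries come from 1 cell line, and the labels do not state whether a group's libraries are separate cultures, so p-values measure the spread between these libraries, which may be technical.

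Library totals ran from 34204970 to 41373890 counts, and mitochondrial genes took 6.69 to 10.8% of a library, more in replicate 3 than in replicate 1 of every group. FKBP5, a classic target of the progesterone receptor, had 419.8 and 612 CPM (counts scaled by library size) at 10 nM and 6 h, against 30.6 and 59.4 CPM in vehicle. FKBP5 responded to 100 pM too, with 627 and 885 CPM at 6 h. At 18 h it had 774 and 855 CPM at 100 pM, against 28.1 and 44.4 CPM in vehicle. PGR, the receptor itself, had 589 and 493 CPM at 10 nM and 6 h, against 2111 and 1786 CPM in vehicle. At 100 pM PGR had 1540 and 1189 CPM at 6 h. At 18 h it had 627 and 393 CPM at 100 pM, against 1846 and 1379 CPM in vehicle. The 10 luminal markers, PGR among them, had reads in every library. At 10 nM 8 of them were called lower at each time. Over all tested genes 19.4% were called lower at 6 h and 15.2% at 18 h. At 100 pM no marker was called at 6 h and 3 were lower at 18 h (3.89% of all tested genes were lower). The summed level of the markers was 7301 to 7308 CPM at 10 nM against 12110 to 12120 CPM in vehicle at 6 h. At 18 h it was 5486 to 5554 CPM at 10 nM against 11510 to 12140 CPM in vehicle. Their part in the changes of the cholesterol genes was not tested, and in bulk RNA fewer cells of a type and less RNA per cell cannot be told apart. Markers of other cell types summed to 10.1 to 18.0 CPM for basal cells, 72.3 to 119.9 CPM for fibroblasts (66.1 to 114 CPM of it COL1A1), 2.49 to 4.26 CPM for immune cells, 0.104 to 0.927 CPM for endothelial cells and 1.27 to 4.20 CPM for adipocytes. Levels differed within these lists. COL1A2 reached at most 0.0271 CPM, PTPRC 0.127 CPM and CDH5 0.0282 CPM, and LEP had no read. Other markers reached more: MYLK 12.4 CPM, COL3A1 9.48 CPM, KRT5 7.02 CPM, CD68 3.92 CPM and PLIN1 3.34 CPM. The endothelial sum, mostly VWF, was 0.526 to 0.927 CPM at 10 nM against 0.163 to 0.364 CPM in vehicle, and the part of these markers in the results was not tested.

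The cholesterol genes as a set held 0.691 and 0.582% of all counts in the 10 nM libraries at 18 h, against 0.381 and 0.283% in the vehicle libraries (replicate 1 before replicate 3 here and in every pair of values below). At 6 h the shares were 0.393 and 0.391% at 10 nM, against 0.344 and 0.271% in vehicle. A gene was called where edgeR's quasi-likelihood test gave a Benjamini-Hochberg adjusted p under 0.05 over all 13872 genes. Libraries with the same number deviated together, so counts are also given from a fit with the replicate number as a block, called the blocked fit below. All other calls are from fits without the block. Fits that leave out 1 library also have no block, and they set a lone library of 1 number against both numbers. In those fits the dose effect is mixed with the difference between replicate numbers, so a lost call may reflect either.

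Against vehicle, 10 nM progestin at 6 h gave 11 members called, 7 higher and 4 lower, which is 34.4% of the members where 42% of all tested genes were called. The calls at 6 h fell on the SREBP control genes SREBF1, SREBF2, SCAP and INSIG2 and on the squalene and sterol genes DHCR7 and SQLE. PMVK, GGPS1, SOAT1, ABCG1 and MYLIP were the others called. At 18 h 21 members were called, 19 higher and 2 lower, or 65.6% of the members where 34.1% of all tested genes were called. Over all tested genes 22.6% were called higher and 19.4% lower at 6 h, and 19% higher and 15.2% lower at 18 h. Both 10 nM libraries exceeded both vehicle libraries in 25 members at 18 h, lay below both in 4 and overlapped them in 3 (65.8% of all tested genes did not overlap, 33.2% with 10 nM higher). At 6 h 15 were above, 8 below and 9 overlapped (71.4% of all tested genes did not overlap). The members' median log2 fold change was 0.24 at 6 h and 1.07 at 18 h, beside medians of -0.02 and -0.002 over all tested genes. The blocked fit called 14 members higher and 9 lower at 6 h (71.9% of members, 62.4% of all genes), and 25 higher and 5 lower at 18 h (93.8% of members, 56% of all genes). Without 1 library of either group the number called was 7 to 10 at 6 h and 7 to 16 at 18 h. At 6 h it was 7 without vehicle replicate 3, 10 nM replicate 1 or 10 nM replicate 3, and at 18 h it was 9 without vehicle replicate 3 and 7 without 10 nM replicate 1. At 18 h that is 28.1% of the members against 23.4% of all tested genes without vehicle replicate 3, and 21.9% of the members against 24.5% of all tested genes without 10 nM replicate 1. At 6 h the share of members ran from 21.9 to 31.2% in these fits, against 29.4 to 33.1% of all tested genes. Among these fits the members' share was below that of all genes at 6 h except in the blocked fit, and above it at 18 h except without 10 nM replicate 1.

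**Figure D1:**
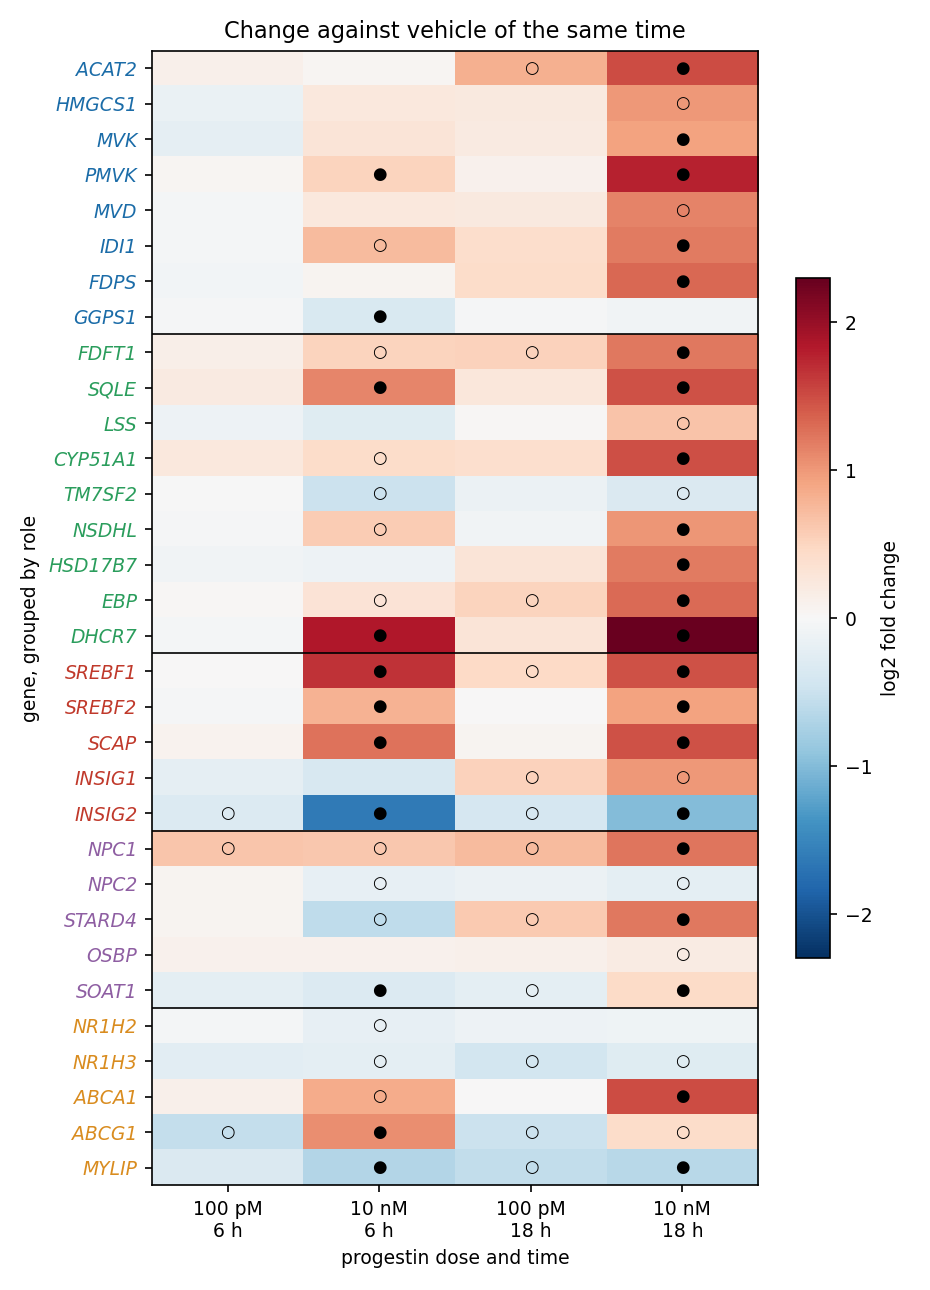
Log2 fold change against vehicle of the same time for the 32 members, in rows by role, with progestin dose and time in columns. Filled circles are calls at an adjusted p under 0.05 and open circles are calls made with the replicate block alone. The 10 nM column at 18 h holds 21 filled circles and the 10 nM column at 6 h holds 11, and both 100 pM columns hold open circles alone.

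The promoters of 5 members are shown as examples. SREBF2 is the one member with a sterol regulatory element match, and EBP and STARD4 hold several CCAAT boxes. DHCR7 and SCAP rose at both times, as did SREBF2. All 5 were called higher than vehicle at the higher dose and later time. Members called lower there and members not called are not shown. Some members not shown had more CCAAT matches, with 5 each in MVK, NSDHL and OSBP. Sequences are RefSeq windows (GRCh38.p14) of 250 bases before the annotated start, read 5′ to 3′ on the strand of the gene. Capitals mark matches to the sterol regulatory element (TCACNCCAC) or the CCAAT box (CCAAT) on either strand, and in DHCR7 a match to the progesterone response element core (ACANNNTGT). The windows are chr22:41832855-41833104 on the plus strand for SREBF2, chrX:48521558-48521807 on the plus strand for EBP, chr5:111512536-111512785 on the minus strand for STARD4, chr11:71449044-71449293 on the minus strand for DHCR7 and chr3:47475942-47476191 on the minus strand for SCAP.
SREBF2: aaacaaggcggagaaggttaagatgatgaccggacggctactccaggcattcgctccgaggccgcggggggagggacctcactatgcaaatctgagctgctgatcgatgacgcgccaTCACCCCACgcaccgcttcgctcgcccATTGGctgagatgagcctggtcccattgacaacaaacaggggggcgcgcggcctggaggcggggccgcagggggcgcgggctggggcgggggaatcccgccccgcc
EBP: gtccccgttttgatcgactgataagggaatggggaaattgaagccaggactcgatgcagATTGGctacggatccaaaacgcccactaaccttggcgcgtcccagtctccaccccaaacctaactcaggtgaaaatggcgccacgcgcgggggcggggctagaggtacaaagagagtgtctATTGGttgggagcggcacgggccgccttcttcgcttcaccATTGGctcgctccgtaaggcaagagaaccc
STARD4: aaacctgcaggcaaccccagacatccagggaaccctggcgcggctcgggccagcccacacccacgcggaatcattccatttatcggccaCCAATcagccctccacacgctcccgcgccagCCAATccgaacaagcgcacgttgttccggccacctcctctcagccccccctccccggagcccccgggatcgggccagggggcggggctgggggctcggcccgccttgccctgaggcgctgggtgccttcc
DHCR7: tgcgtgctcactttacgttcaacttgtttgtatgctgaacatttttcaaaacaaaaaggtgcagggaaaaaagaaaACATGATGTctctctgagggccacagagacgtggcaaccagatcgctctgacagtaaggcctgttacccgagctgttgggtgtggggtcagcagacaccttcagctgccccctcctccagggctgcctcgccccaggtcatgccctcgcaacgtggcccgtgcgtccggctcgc
SCAP: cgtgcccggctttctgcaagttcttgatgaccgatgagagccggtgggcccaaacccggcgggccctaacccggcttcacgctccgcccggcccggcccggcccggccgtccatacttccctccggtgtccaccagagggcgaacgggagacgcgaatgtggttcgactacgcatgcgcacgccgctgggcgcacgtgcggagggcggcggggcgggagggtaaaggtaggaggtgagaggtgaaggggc

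RefSeq windows of 300 bases, 250 before and 50 after a start, were at hand for 28 of the 32 members, and FDFT1, SQLE, ACAT2 and ABCG1 had no entry. Each motif was searched on both strands and counted on its own, so matches of different motifs may overlap, and a gene counted where any of its windows held the motif. A CCAAT box stood in 20 of the 28 members (71.4%), against 43.1% of the tested genes with a window and 39.7% of all genes with a window. The sterol regulatory element stood in 1 member, SREBF2 (3.57%), against 1.54% of tested genes and 1.39% of all genes with a window. The progesterone response element core stood in 2 members, DHCR7 and CYP51A1 (7.14%), against 4.48% of tested genes and 6.54% of all genes with a window. The GC box (GGGCGG), an Sp1 site, stood in 27 of 28 members, NSDHL being the exception, against 75.9% of tested genes and 48.3% of all genes with a window. STARD4 held 2 CCAAT boxes in its window and EBP 3, and SCAP, INSIG2, PMVK, SREBF1, NPC1, ABCA1, NR1H2 and CYP51A1 held none. The DHCR7 window printed above has no CCAAT box, and another of its windows has. A match describes these letters and is no measurement of binding.

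Among the SREBP control genes, 3 of 5 rose and 1 fell at each time at 10 nM. SCAP, the escort of the SREBP precursors, had 66.7 and 67.4 CPM in vehicle, 71.4 and 71.0 CPM at 100 pM and 154 and 165 CPM at 10 nM at 6 h. At 18 h SCAP had 67.7 and 67.0 CPM in vehicle, 71.5 and 68.8 CPM at 100 pM and 193 and 178 CPM at 10 nM. All 4 libraries at 10 nM stood above the other 8, and replicates lay close together. The log2 fold change against vehicle was 1.25 ± 0.07 (SE) at 6 h (adjusted p = 5.13e-06) and 1.46 ± 0.07 at 18 h (adjusted p = 5.09e-06).

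INSIG2, one of the pair of INSIG proteins that retain SCAP, moved the other way. It had 42.4 and 39.6 CPM in vehicle, 34.5 and 31.4 CPM at 100 pM and 14.3 and 12.1 CPM at 10 nM at 6 h. At 18 h it had 44.5 and 42.7 CPM in vehicle, 34.5 and 32.5 CPM at 100 pM and 24.4 and 19.1 CPM at 10 nM. The 3 doses did not overlap at either time, with vehicle highest and 10 nM lowest. At 10 nM the log2 fold change was -1.63 ± 0.13 at 6 h (adjusted p = 2.94e-05) and -1.003 ± 0.13 at 18 h (adjusted p = 0.000475). At 100 pM it was -0.32 ± 0.13 at 6 h (adjusted p = 0.354, and 0.0203 in the blocked fit) and -0.38 ± 0.13 at 18 h (adjusted p = 0.0989, and 0.003 in the blocked fit).

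SREBF1 encodes the SREBP form best known for fatty acid genes. It had 219.6 and 387 CPM at 10 nM and 6 h, against 76.9 and 116 CPM in vehicle, and 180.2 and 285 CPM at 10 nM and 18 h, against 75.8 and 93.1 CPM in vehicle. Both times were free of overlap, with replicate 3 the higher library in each of these groups. SREBF1 rose by a log2 fold change of 1.66 ± 0.33 at 6 h (adjusted p = 0.0037) and 1.46 ± 0.33 at 18 h (adjusted p = 0.00853). SREBF2, the SREBP form best known for cholesterol genes, had 383 and 429 CPM at 10 nM and 6 h, against 242 and 228 CPM in vehicle. At 18 h SREBF2 had 470.1 and 464 CPM at 10 nM, against 269 and 225 CPM in vehicle. It rose by a log2 fold change of 0.79 ± 0.15 at 6 h (adjusted p = 0.00275) and 0.92 ± 0.15 at 18 h (adjusted p = 0.00161).

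INSIG1, the partner of INSIG2 and itself a well-known SREBP target, had 50.2 and 37.2 CPM at 10 nM and 6 h, against 73.6 and 39.5 CPM in vehicle. At 18 h it had 169 and 111 CPM at 10 nM, against 95.0 and 45.8 CPM in vehicle. The groups overlapped at 6 h and not at 18 h, where the log2 fold change was 0.996 ± 0.49 (adjusted p = 0.154, and 4.5e-05 in the blocked fit). SREBF1 at 18 h lost its call without vehicle replicate 1 (adjusted p = 0.061) or 10 nM replicate 3 (adjusted p = 0.0572). SCAP, SREBF2 and INSIG2 kept their calls at both times whichever library was left out, as did SREBF1 at 6 h.

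**Figure D2:**
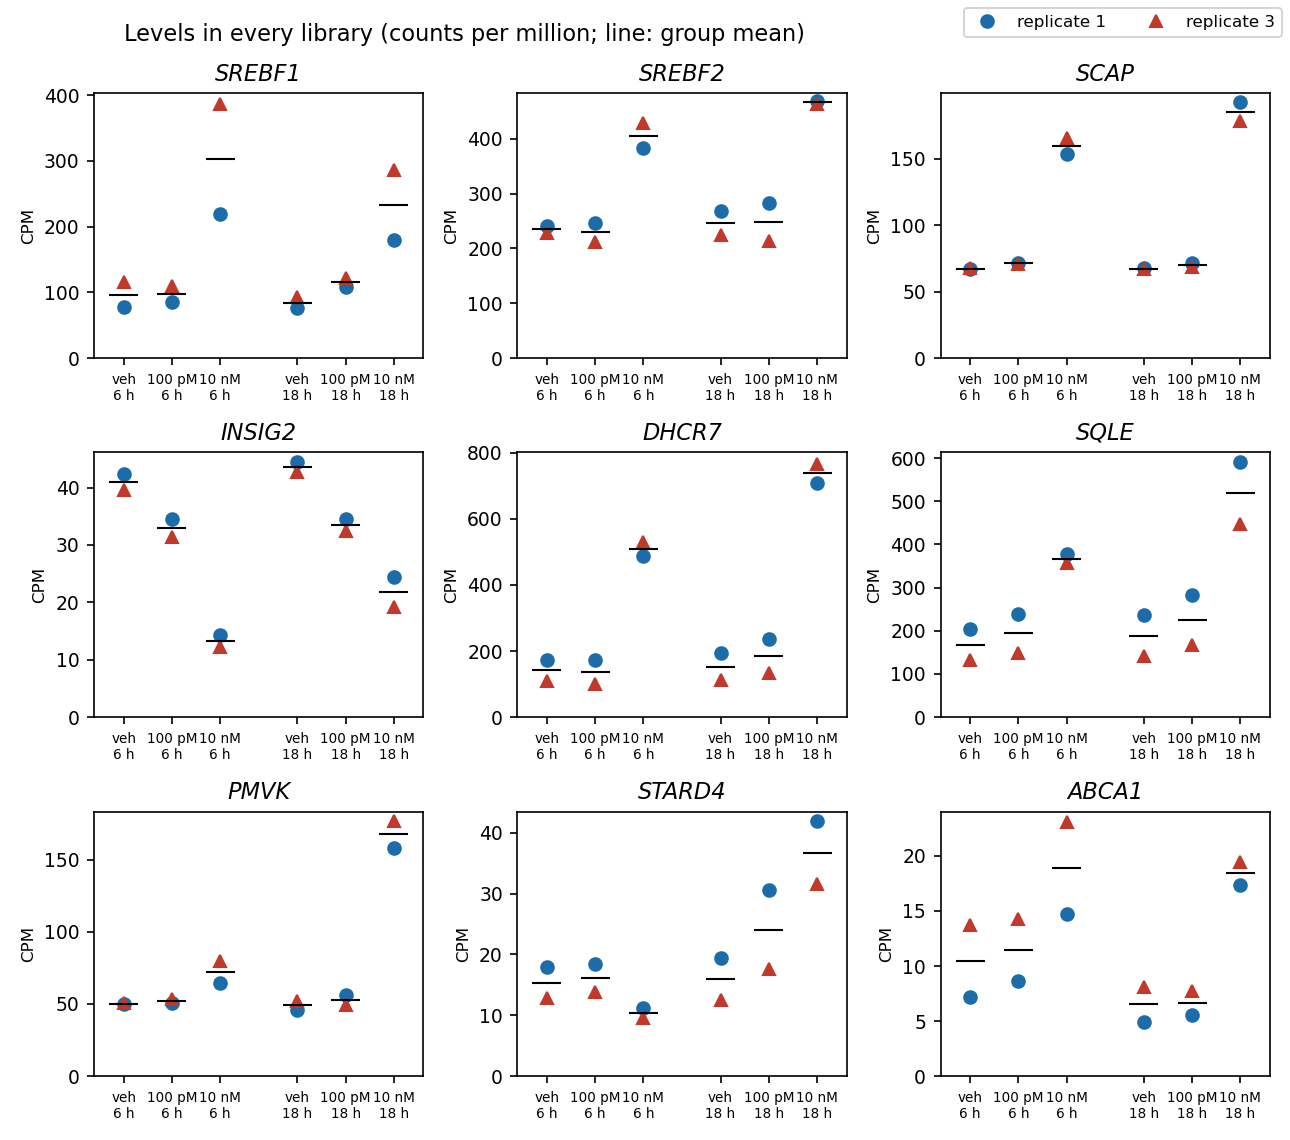
CPM of 9 members in all 12 libraries, with replicate 1 as circles, replicate 3 as triangles and a line at the group mean; dose and time run along the x axis from vehicle to 10 nM within each time. SCAP at 10 nM lies between 154 and 193 CPM, against 66.7 to 67.7 CPM in vehicle, while STARD4 at 10 nM is below vehicle at 6 h and above it at 18 h.

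Of the 8 mevalonate genes, PMVK rose and GGPS1 fell at 6 h, and 5 rose at 18 h at 10 nM. PMVK, phosphomevalonate kinase, had 50.2 and 50.3 CPM in vehicle, 50.7 and 53.5 CPM at 100 pM and 64.7 and 79.5 CPM at 10 nM at 6 h. At 18 h PMVK had 46.1 and 52.2 CPM in vehicle, 56.2 and 49.5 CPM at 100 pM and 158 and 177 CPM at 10 nM. Both 10 nM libraries stood above all vehicle libraries at each time. PMVK rose by a log2 fold change of 0.52 ± 0.12 at 6 h (adjusted p = 0.0073) and 1.77 ± 0.12 at 18 h (adjusted p = 1.63e-05).

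ACAT2, the cytosolic thiolase that opens the pathway, had 36.3 and 24.2 CPM in vehicle, 39.2 and 26.7 CPM at 100 pM and 34.0 and 28.6 CPM at 10 nM at 6 h. At 18 h it had 41.1 and 25.3 CPM in vehicle, 67.3 and 49.99 CPM at 100 pM and 116 and 71.0 CPM at 10 nM. The groups overlapped at 6 h, and at 18 h the doses stood apart in order. At 10 nM and 18 h its log2 fold change was 1.495 ± 0.34 (adjusted p = 0.00963). FDPS, farnesyl diphosphate synthase, had 376 and 255 CPM at 10 nM and 18 h, against 169 and 82.1 CPM in vehicle (log2 fold change 1.33 ± 0.45, adjusted p = 0.0479). IDI1, the isopentenyl diphosphate isomerase, had 408 and 357 CPM at 10 nM and 18 h, against 202 and 131 CPM in vehicle (log2 fold change 1.20 ± 0.29, adjusted p = 0.0125). MVK, mevalonate kinase, had 78.4 and 73.0 CPM at 10 nM and 18 h, against 47.9 and 32.01 CPM in vehicle (log2 fold change 0.92 ± 0.29, adjusted p = 0.04). In all 3 genes both 10 nM libraries were above both vehicle libraries.

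HMGCS1, HMG-CoA synthase, had 679 and 389 CPM at 10 nM and 18 h, against 348 and 183 CPM in vehicle, with a log2 fold change of 1.01 ± 0.55 (adjusted p = 0.197, and 7.1e-05 in the blocked fit). MVD, the decarboxylase that makes isopentenyl diphosphate, had 241 and 163 CPM at 10 nM and 18 h, against 118 and 66.0 CPM in vehicle, with a log2 fold change of 1.13 ± 0.47 (adjusted p = 0.0965, and 0.000342 in the blocked fit). In both genes replicate 3 was far below replicate 1 within each of these groups. GGPS1 makes geranylgeranyl diphosphate, which leaves the sterol route, and it had 72.6 and 78.5 CPM at 10 nM and 6 h, against 92.4 and 101 CPM in vehicle. It fell by 0.36 ± 0.09 on the log2 scale at 6 h (adjusted p = 0.0127), and at 18 h its groups overlapped at 97.0 and 90.6 CPM at 10 nM against 93.4 and 104 CPM in vehicle. Without vehicle replicate 3 or 10 nM replicate 1 the adjusted p at 18 h was 0.0592 to 0.228 for ACAT2, MVK, IDI1 and FDPS, without 10 nM replicate 3 it was 0.0876 for MVK and 0.0578 for FDPS, and with no filter on low counts it was 0.0521 for MVK and 0.0629 for FDPS; FDPS had 0.0824 in a fit to the 18 h libraries alone. At 6 h PMVK had 0.0544 without 10 nM replicate 3, and GGPS1 had 0.0905 without vehicle replicate 3 and 0.0828 without 10 nM replicate 1.

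In the GENCODE annotation, exons of ACAT2 share bases with SOD2 and TCP1, those of GGPS1 with TBCE and ARID4B, those of MVK with MMAB and those of LSS with the antisense gene AP001468.1. The strand setting of the counts is not given in the sources used here, so reads in the shared stretches cannot be assigned. FDPS, CYP51A1 and HSD17B7 have annotated pseudogenes, and how reads shared with them were counted is not given in the sources used here.

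Of the 9 squalene and sterol genes, DHCR7 and SQLE rose at 6 h and 7 rose at 18 h at 10 nM. DHCR7, the reductase that completes cholesterol in the Kandutsch-Russell route, had 174 and 109 CPM in vehicle, 173 and 100.3 CPM at 100 pM and 488 and 529 CPM at 10 nM at 6 h. At 18 h DHCR7 had 193 and 111 CPM in vehicle, 237 and 134 CPM at 100 pM and 710.0 and 768 CPM at 10 nM. Replicate 3 was the lower library in vehicle and at 100 pM and the higher one at 10 nM, and the 10 nM libraries stood far above all others. The log2 fold change was 1.84 ± 0.39 at 6 h (adjusted p = 0.00516) and 2.28 ± 0.39 at 18 h (adjusted p = 0.00238), the largest of the 32 members at both times.

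SQLE, squalene epoxidase, a rate-limiting enzyme of the late pathway, had 203 and 132 CPM in vehicle, 239 and 149 CPM at 100 pM and 377 and 356 CPM at 10 nM at 6 h. At 18 h SQLE had 235 and 142 CPM in vehicle, 284 and 166 CPM at 100 pM and 590.1 and 447 CPM at 10 nM. No 10 nM library overlapped with vehicle at its time. SQLE rose by a log2 fold change of 1.13 ± 0.36 at 6 h (adjusted p = 0.0343) and 1.46 ± 0.36 at 18 h (adjusted p = 0.0145). EBP, the sterol isomerase, had 42.9 and 42.5 CPM at 10 nM and 6 h, against 38.3 and 29.9 CPM in vehicle, a log2 fold change of 0.32 ± 0.20 (adjusted p = 0.235, and 0.00777 in the blocked fit). At 18 h EBP had 93.9 and 81.1 CPM at 10 nM, against 40.2 and 31.0 CPM in vehicle, a log2 fold change of 1.30 ± 0.20 (adjusted p = 0.00145).

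The other 4 sterol genes that rose at 18 h were FDFT1, CYP51A1, NSDHL and HSD17B7. FDFT1, squalene synthase, had 402 and 308 CPM at 10 nM, against 182 and 126 CPM in vehicle (log2 fold change 1.21 ± 0.28, adjusted p = 0.01). CYP51A1, the lanosterol demethylase, had 422 and 293 CPM at 10 nM, against 158 and 98.02 CPM in vehicle (1.48 ± 0.44, adjusted p = 0.0314). NSDHL, a sterol dehydrogenase, had 111 and 86.3 CPM at 10 nM, against 56.3 and 41.8 CPM in vehicle (1.01 ± 0.28, adjusted p = 0.0213). In each of these genes both 10 nM libraries exceeded both vehicle libraries. HSD17B7, a ketosteroid reductase, had 21.5 and 11.7 CPM at 10 nM, against 9.03 and 5.55 CPM in vehicle (1.19 ± 0.39, adjusted p = 0.0438), and its log2 fold change was 0.69 (adjusted p = 0.265) without 10 nM replicate 1.

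LSS, lanosterol synthase, had 669 and 469 CPM at 10 nM and 18 h, against 441 and 278 CPM in vehicle, and its log2 fold change of 0.66 ± 0.42 passed in the blocked fit alone (adjusted p = 0.259, and 0.000212 in the blocked fit). TM7SF2, a sterol reductase, had 155 and 177 CPM at 10 nM and 18 h, against 185 and 233 CPM in vehicle, the one sterol gene with a negative log2 fold change at 18 h, of -0.33 ± 0.22 (adjusted p = 0.28, and 0.00998 in the blocked fit). At 6 h the blocked fit also called FDFT1, CYP51A1, NSDHL and EBP higher and TM7SF2 lower. Without vehicle replicate 3 or 10 nM replicate 1 the adjusted p at 18 h was 0.0598 to 0.265 for FDFT1, SQLE, CYP51A1, NSDHL and HSD17B7, and without vehicle replicate 1 it was 0.0511 for CYP51A1 and 0.0515 for HSD17B7, which also had 0.0504 with no filter on low counts and 0.0775 in a fit to the 18 h libraries alone. At 6 h SQLE had 0.189 without vehicle replicate 3, 0.11 without 10 nM replicate 1 and 0.0803 without 10 nM replicate 3.

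Of the 5 transport and storage genes, 1 fell at 6 h and 3 rose at 18 h at 10 nM. STARD4, a carrier that moves cholesterol between membranes, had 17.9 and 12.8 CPM in vehicle, 18.4 and 13.8 CPM at 100 pM and 11.1 and 9.51 CPM at 10 nM at 6 h. At 18 h STARD4 had 19.4 and 12.5 CPM in vehicle, 30.5 and 17.6 CPM at 100 pM and 41.9 and 31.6 CPM at 10 nM. The 10 nM libraries lay below both vehicle libraries at 6 h and above both at 18 h. STARD4 had a log2 fold change of -0.58 ± 0.32 at 6 h (adjusted p = 0.188, and 0.00163 in the blocked fit) and 1.21 ± 0.32 at 18 h (adjusted p = 0.0192). SOAT1, which esterifies cholesterol for storage, had 24.3 and 23.5 CPM at 10 nM and 6 h, against 30.1 and 29.1 CPM in vehicle, and 40.5 and 34.7 CPM at 10 nM and 18 h, against 26.7 and 28.9 CPM in vehicle. It fell by 0.31 ± 0.10 on the log2 scale at 6 h (adjusted p = 0.0296) and rose by a log2 fold change of 0.44 ± 0.09 at 18 h (adjusted p = 0.00741).

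NPC1, which exports cholesterol from lysosomes, had 71.2 and 50.3 CPM in vehicle, 109 and 79.5 CPM at 100 pM and 102 and 84.8 CPM at 10 nM at 6 h. At 18 h NPC1 had 88.4 and 57.9 CPM in vehicle, 149.6 and 94.1 CPM at 100 pM and 191 and 152 CPM at 10 nM. Both doses lay above vehicle at each time, and at 6 h they overlapped each other. NPC1 had a log2 fold change at 10 nM of 0.62 ± 0.30 at 6 h (adjusted p = 0.129, and 7.23e-05 in the blocked fit) and 1.23 ± 0.30 at 18 h (adjusted p = 0.0128). NPC2, the soluble partner of NPC1 in the lysosome, had 133 and 90.8 CPM at 10 nM and 18 h, against 160.1 and 102 CPM in vehicle (log2 fold change -0.23 ± 0.36, adjusted p = 0.663, and 0.013 in the blocked fit). OSBP, an oxysterol-binding lipid exchanger, had 213 and 215 CPM at 10 nM and 18 h, against 186 and 189 CPM in vehicle (0.19 ± 0.07, adjusted p = 0.0661, 0.0178 in the blocked fit and 0.00509 with DESeq2). At 18 h NPC1 and STARD4 had adjusted p of 0.0685 to 0.118 without vehicle replicate 3 or 10 nM replicate 1, and SOAT1 had 0.059 without vehicle replicate 1 and 0.0542 without 10 nM replicate 1. At 6 h SOAT1 was not called when any 1 of its 4 libraries was left out (adjusted p 0.0798 to 0.119).

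Of the 5 genes of LXR, efflux and receptor decay, ABCG1 rose at 6 h, ABCA1 rose at 18 h and MYLIP fell at both times at 10 nM. ABCG1, an efflux pump to HDL, had 19.1 and 29.4 CPM in vehicle, 12.5 and 20.6 CPM at 100 pM and 44.5 and 56.8 CPM at 10 nM at 6 h. At 18 h ABCG1 had 16.5 and 22.2 CPM in vehicle, 10.7 and 16.9 CPM at 100 pM and 24.0 and 27.7 CPM at 10 nM. Each 100 pM library was below the vehicle library of its own number and each 10 nM library above it. The log2 fold change at 10 nM was 1.06 ± 0.32 at 6 h (adjusted p = 0.0262) and 0.42 ± 0.32 at 18 h (adjusted p = 0.354, and 0.00686 in the blocked fit). At 100 pM it was -0.56 ± 0.32 at 6 h (adjusted p = 0.633, and 0.00649 in the blocked fit) and -0.49 ± 0.32 at 18 h (adjusted p = 0.395, and 0.00673 in the blocked fit).

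ABCA1, the efflux pump to lipid-poor apolipoprotein, had 14.8 and 23.1 CPM at 10 nM and 6 h, against 7.20 and 13.8 CPM in vehicle, and 17.4 and 19.4 CPM at 10 nM and 18 h, against 4.95 and 8.12 CPM in vehicle. The log2 fold change was 0.85 ± 0.39 at 6 h (adjusted p = 0.115, and 0.000301 in the blocked fit) and 1.49 ± 0.40 at 18 h (adjusted p = 0.0204). MYLIP, the LXR-induced ligase that degrades the LDL receptor, had 8.91 and 8.80 CPM at 10 nM and 6 h, against 13.2 and 15.1 CPM in vehicle, and 9.21 and 9.41 CPM at 10 nM and 18 h, against 11.9 and 17.1 CPM in vehicle. It fell by 0.68 ± 0.20 on the log2 scale at 6 h (adjusted p = 0.0263) and by 0.64 ± 0.20 at 18 h (adjusted p = 0.039). These 3 genes are all known LXR targets, and at 10 nM the pumps and the ligase moved in opposite directions.

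Neither LXR receptor was called at 10 nM. NR1H3 (LXR alpha) had 14.1 and 17.9 CPM at 10 nM and 18 h, against 17.9 and 20.9 CPM in vehicle (log2 fold change -0.27 ± 0.16, adjusted p = 0.23, and 0.013 in the blocked fit), and its exons share bases with those of ACP2. NR1H2 (LXR beta) had 50.2 and 45.5 CPM at 10 nM and 18 h, against 52.5 and 49.3 CPM in vehicle (-0.09 ± 0.10, adjusted p = 0.539). At 6 h both were called lower in the blocked fit (log2 fold change -0.22 for NR1H3 and -0.20 for NR1H2, adjusted p = 0.0307 and 0.0239), and NR1H2 also with upper-quartile scaling (adjusted p = 0.018). At 6 h ABCG1 had an adjusted p of 0.146 without vehicle replicate 1, 0.138 without 10 nM replicate 3 and 0.0504 with upper-quartile scaling, and MYLIP had 0.0959 to 0.131 without vehicle replicate 3 or either 10 nM library. At 18 h ABCA1 had 0.124 without vehicle replicate 1, 0.0536 without 10 nM replicate 1 and 0.0782 without 10 nM replicate 3, and MYLIP had 0.134 and 0.124 without 10 nM replicate 1 or 3, 0.0902 in a fit to the 18 h libraries alone and a log2 fold change of -0.36 (adjusted p = 0.262) without vehicle replicate 3.

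At 100 pM no member was called at 6 h, where 3.48% of all tested genes were (2.88% higher and 0.606% lower), and none at 18 h, where 10.5% were (6.57% higher and 3.89% lower). Unadjusted p was under 0.05 for 2 members at 6 h and 7 at 18 h. The share of all genes under that unadjusted threshold is not given here. DESeq2 called 0 members at each time, where it called 849 of all genes at 6 h and 2231 at 18 h. The blocked fit called NPC1 higher and INSIG2 and ABCG1 lower at 6 h (12.2% of all genes called). At 18 h it called 7 higher, namely ACAT2, FDFT1, EBP, SREBF1, INSIG1, NPC1 and STARD4, and 5 lower, namely INSIG2, SOAT1, NR1H3, ABCG1 and MYLIP (34.1% of all genes called). The largest log2 fold change at 18 h was that of ACAT2, 0.82 ± 0.34 (adjusted p = 0.167, and 5.67e-05 in the blocked fit). NPC1 had 0.63 ± 0.30 at 6 h and 0.74 ± 0.30 at 18 h (adjusted p = 0.474 and 0.16). The members' median log2 fold change was -0.03 at 6 h and 0.17 at 18 h, beside -0.02 and -0.04 over all tested genes.

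Between the doses, 10 nM against 100 pM, 8 members (25%) were called at 6 h, where 37% of all tested genes were, and 11 (34.4%) at 18 h, where 26.2% were. Over all tested genes 20.1% were higher and 16.8% lower at 6 h, and 14.8% higher and 11.4% lower at 18 h. These comparisons share the 10 nM libraries with those against vehicle. At 6 h DHCR7, SREBF1, SREBF2, SCAP, ABCG1 and PMVK were higher and INSIG2 and GGPS1 lower at 10 nM. ABCG1 had a log2 fold change of 1.62 ± 0.32 between doses (adjusted p = 0.0047), beside 1.06 ± 0.32 against vehicle. At 18 h PMVK, DHCR7, EBP, NSDHL, SQLE, SREBF1, SREBF2, SCAP, SOAT1 and ABCA1 were higher and INSIG2 lower at 10 nM. SOAT1 had 40.5 and 34.7 CPM at 10 nM, against 24.2 and 23.1 CPM at 100 pM (0.67 ± 0.10, adjusted p = 0.00114). ACAT2 and NPC1 had log2 fold changes of 0.67 ± 0.33 (adjusted p = 0.177, and 0.000146 in the blocked fit) and 0.49 ± 0.29 (adjusted p = 0.259, and 0.000449 in the blocked fit). The blocked fit called 14 higher and 6 lower at 6 h (59.3% of all genes) and 24 higher and 1 lower at 18 h (50.2% of all genes). Without 1 library, PMVK and GGPS1 lost their calls in turn at 6 h. In the fits that lost them, the log2 fold change was 0.32 to 0.42 for PMVK and -0.39 to -0.26 for GGPS1. Fewer of all tested genes were called in these fits too. The members' share stayed below that of all genes at 6 h and above it at 18 h, narrowly so without 100 pM replicate 3. The calls lost at 18 h were those of SQLE (adjusted p 0.0557 to 0.203 in the fits that lost it), NSDHL (0.112 to 0.122), EBP (0.109 to 0.124), ABCA1 (0.0647 to 0.132) and SREBF1, whose log2 fold change was 0.61 (adjusted p = 0.262) without 10 nM replicate 3. With no filter on low counts SQLE had 0.0523 and SREBF1 0.0701, SQLE had 0.0665 in a fit to the 18 h libraries alone, and SREBF1 had 0.0519 and 0.0627 with RLE and upper-quartile scaling.

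Over time, the vehicle libraries gave no member called at 18 h against 6 h. No member had an unadjusted p under 0.05, and DESeq2 called 0. Of all tested genes 0% were called by edgeR and 0.0288% in its blocked fit, and DESeq2 called 2 genes. At 100 pM none was called either (1.18% of all tested genes, 0.526% higher and 0.656% lower). Unadjusted p was under 0.05 for 3 members (share of all genes not given here). DESeq2 called 0 members and 855 of all genes. The blocked fit called 9 members higher and 2 lower (22.2% of all genes). At 10 nM 10 members (31.2%) were higher at 18 h than at 6 h, where 24.5% of all tested genes were called and 11.4% were called higher. They were ACAT2, PMVK, FDPS, GGPS1, HSD17B7, EBP, INSIG1, INSIG2, STARD4 and SOAT1. STARD4 had the largest difference, 41.9 and 31.6 CPM at 18 h against 11.1 and 9.51 CPM at 6 h (1.83 ± 0.33, adjusted p = 0.00527). INSIG1 had 169 and 111 CPM at 18 h, against 50.2 and 37.2 CPM at 6 h (1.68 ± 0.50, adjusted p = 0.0393). ABCG1 had 24.0 and 27.7 CPM at 18 h, against 44.5 and 56.8 CPM at 6 h (-0.97 ± 0.32, adjusted p = 0.0555, 2.85e-05 in the blocked fit and 0.016 with DESeq2). The blocked fit called 23 higher and 3 lower (49.2% of all genes). Without 1 library 5 to 7 were called, 5 without either 6 h library or 18 h replicate 1, and ACAT2, FDPS, GGPS1, HSD17B7 and INSIG1 were the ones that lost their calls (15.6% of the members against 16.5% of all tested genes without 18 h replicate 1, and HSD17B7 at a log2 difference of 0.78, adjusted p = 0.234, without 18 h replicate 1). With no filter on low counts FDPS, GGPS1 and INSIG1 had adjusted p of 0.0505, 0.0516 and 0.0503, and in a fit to the 10 nM libraries alone GGPS1, HSD17B7 and INSIG2 had 0.0982, 0.0734 and 0.0595.

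The 10 nM effect against vehicle was itself more positive at 18 h than at 6 h in 3 members (9.38%), PMVK, STARD4 and SOAT1, where 10.5% of all tested genes differed, 4.55% more positive and 5.99% more negative. PMVK differed by 1.25 ± 0.17 on the log2 scale (adjusted p = 0.0043), STARD4 by 1.78 ± 0.46 (adjusted p = 0.0413) and SOAT1 by 0.74 ± 0.13 (adjusted p = 0.013). The blocked fit called 19 members more positive, with ACAT2, HSD17B7, INSIG1, EBP, FDPS and CYP51A1 among them, and ABCG1 more negative (35.1% of all genes called). For DHCR7, SCAP, SREBF1 and SREBF2, called at both times, neither fit called a difference between the times (0.44 ± 0.53, 0.21 ± 0.10, -0.19 ± 0.45 and 0.13 ± 0.21 in that order). The STARD4 call did not outlast the removal of any 1 of the 8 libraries (adjusted p 0.0594 to 0.117), and SOAT1 lost its call without vehicle 18 h replicate 1 (adjusted p = 0.059). Fewer of all tested genes were called in these fits too. The difference of 10 nM from 100 pM was more positive at 18 h in PMVK, SOAT1 and INSIG2 (12.2% of all tested genes called, 5.54% more positive and 6.69% more negative). The blocked fit called 15 members more positive and 2 more negative there (37.6% of all genes called). For INSIG2 the difference of 0.69 ± 0.18 (adjusted p = 0.0418) means a smaller gap between the doses at 18 h, and it was lost without any 1 of 7 libraries (adjusted p 0.0548 to 0.125). Fewer of all tested genes were called in those fits as well. For the 100 pM effect no member differed between times (0.0144% of all tested genes called), with 0 at an unadjusted p under 0.05. DESeq2 called 0 members and 108 of all genes. The blocked fit called 2 members, ACAT2 and INSIG1 (5.6% of all genes called).

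**Figure D3:**
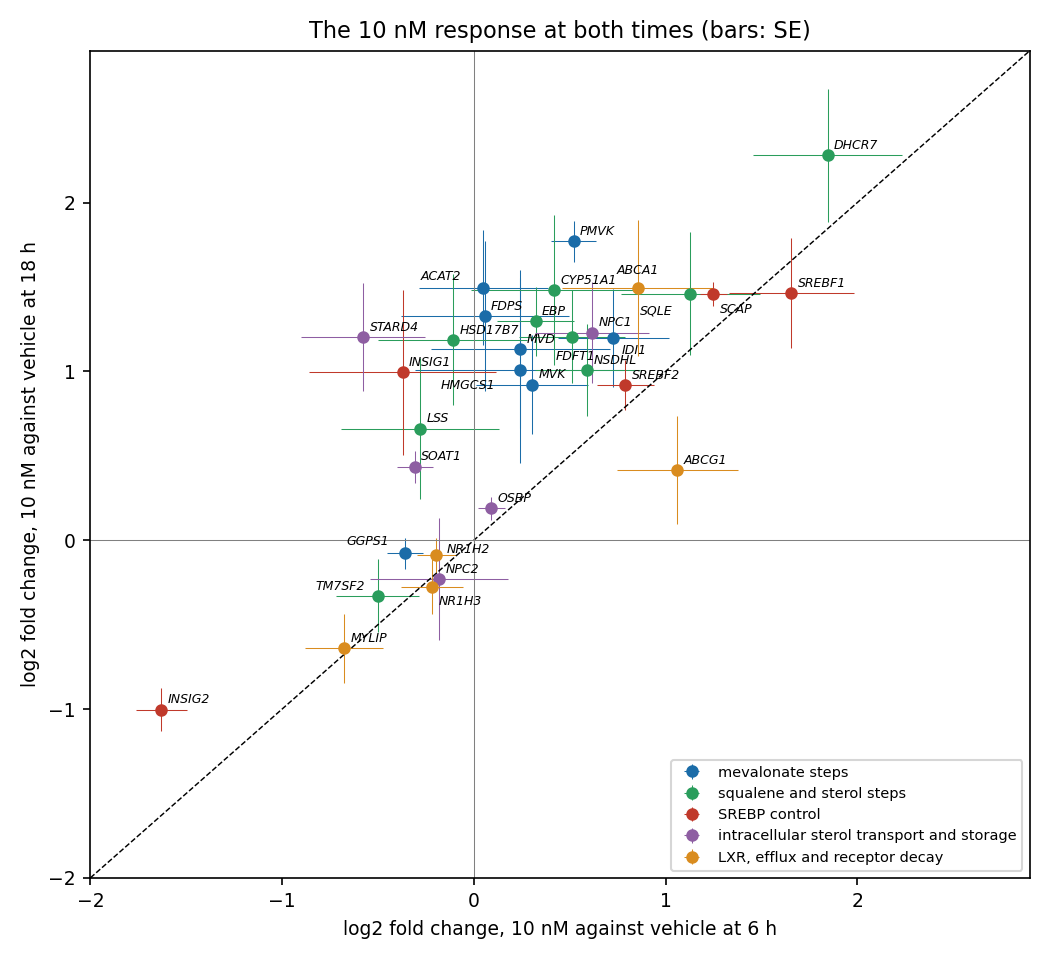
Log2 fold change of 10 nM against vehicle at 6 h (x axis) and at 18 h (y axis) for the 32 members, coloured by role, with SE bars and a dashed line of equal change. STARD4, SOAT1, INSIG1, LSS and HSD17B7 lie left of 0 at 6 h and above 0 at 18 h. INSIG2, MYLIP, GGPS1, TM7SF2, NPC2, NR1H2 and NR1H3 lie below 0 at both times. SCAP, SREBF1, SREBF2 and DHCR7 lie near the line.

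Replicate number moved the cholesterol genes as well, a comparison looked at after the counts were seen. In the blocked fit over all 6 groups, 20 members were lower and 6 higher in replicate 3 than in replicate 1, where 24.3% of all tested genes were lower and 22.8% higher. The members' median log2 difference was -0.41, beside 0.002 over all tested genes. HMGCS1 was lowest at -0.90 ± 0.07 (adjusted p = 1.09e-05), and it was lower in replicate 3 in 6 of 6 groups. INSIG1, MVD and CYP51A1 followed at -0.80 ± 0.07, -0.73 ± 0.10 and -0.70 ± 0.08. The members higher in replicate 3 were ABCA1 (0.60 ± 0.09), ABCG1 (0.49 ± 0.07), SREBF1 (0.49 ± 0.08), TM7SF2, MYLIP and NR1H3. SCAP, SREBF2, PMVK, GGPS1, OSBP and SOAT1 were not called. What the libraries of 1 number share is not in the labels, and its part in these differences was not tested. Within each number the 10 nM changes kept their sign: against vehicle of the same number, 25 members were higher and 6 lower in both numbers at 18 h (42% of all tested genes were higher and 42.6% lower in both), with GGPS1 mixed, and at 6 h 17 were higher, 12 lower and 3 mixed (42.8% of all tested genes higher and 44.9% lower in both).

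**Figure D4:**
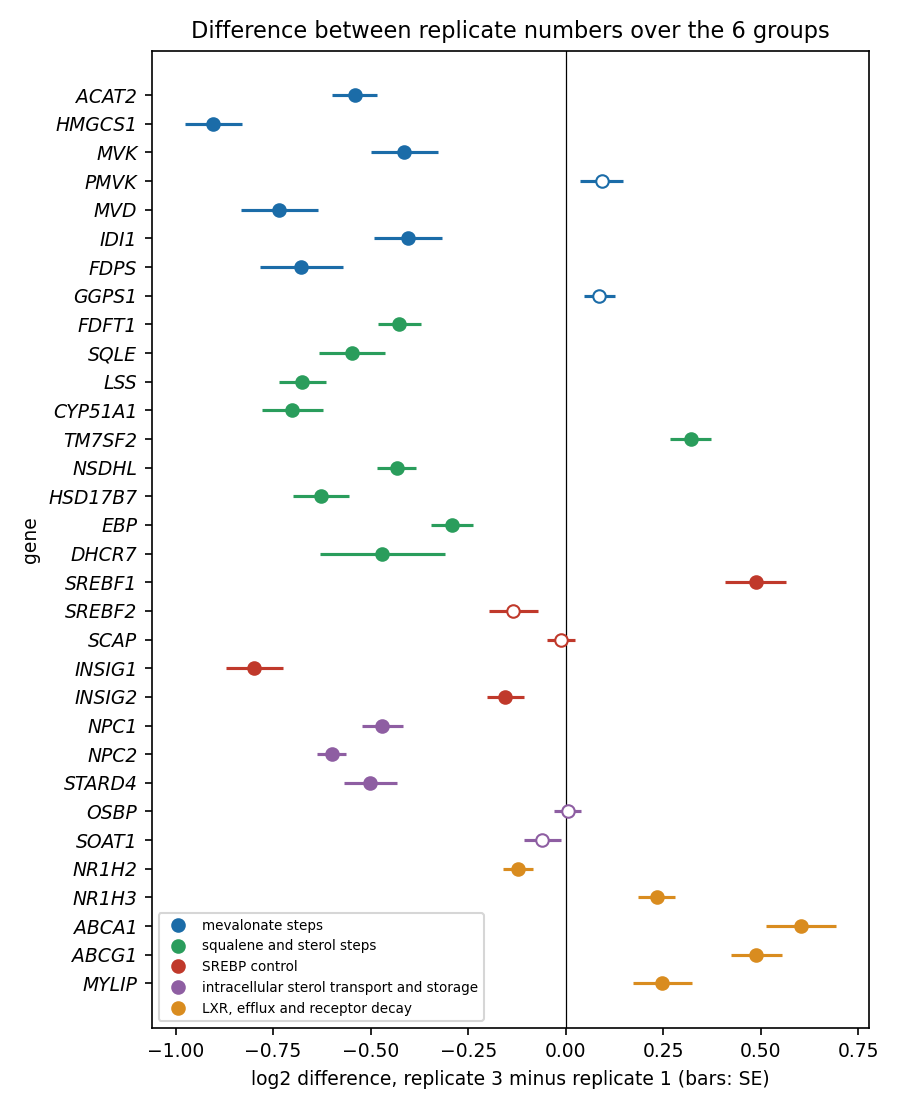
Log2 difference of replicate 3 minus replicate 1 over the 6 groups for each member, with SE bars, coloured by role; filled points have an adjusted p under 0.05 in the fit with the replicate block. Most enzymes lie to the left of 0, with HMGCS1 farthest at -0.90, and ABCA1, ABCG1 and SREBF1 lie to the right.

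Other genes around the pathway were followed as lists. Of 28 tested further genes of cholesterol handling and SREBP processing, 5 were higher and 8 lower at 10 nM and 6 h, or 46.4% where 42% of all tested genes were called, and 10 higher and 5 lower at 18 h, or 53.6% where 34.1% were. The blocked fit gave 8 higher and 10 lower at 6 h (64.3% of the list, 62.4% of all genes) and 14 higher and 8 lower at 18 h (78.6% of the list, 56% of all genes). VLDLR, a lipoprotein receptor, had 24.7 and 21.9 CPM at 10 nM and 6 h, against 8.45 and 7.84 CPM in vehicle (log2 fold change 1.52 ± 0.17, adjusted p = 0.000145). MBTPS1, the Golgi protease that makes the first cut in SREBP, had 575 and 546 CPM at 10 nM and 18 h, against 348 and 380 CPM in vehicle (0.62 ± 0.09, adjusted p = 0.000872). SCARB1, the HDL receptor, fell to 113 and 108 CPM at 10 nM and 18 h, against 193 and 201 CPM in vehicle (-0.83 ± 0.07, adjusted p = 5.35e-05). At 100 pM and 18 h these 28 genes gave 2 higher and 1 lower, or 10.7% where 10.5% of all tested genes were called (6 and 9 in the blocked fit, 53.6% where 34.1% were). On the branches that leave mevalonate for dolichol, ubiquinone and prenylation 13 genes were tested. Of these, 3 were higher and 3 lower at 10 nM and 6 h (46.2%, where 42% of all tested genes were called). At 18 h 2 were higher and 1 lower (23.1%, where 34.1% of all genes were). The blocked fit gave 3 higher and 5 lower at 6 h (61.5%, where 62.4% of all genes were called). At 18 h it gave 2 higher and 1 lower (23.1%, where 56% of all genes were). At 100 pM and 18 h 1 was higher (7.69%, where 10.5% of all genes were). The blocked fit gave 1 higher and 2 lower there (23.1%, where 34.1% of all genes were). Of 11 tested fatty acid genes of SREBP1, 3 were higher and 1 lower at 10 nM and 6 h (36.4%, where 42% of all genes were called). The blocked fit gave 5 higher and 4 lower (81.8%, where 62.4% of all genes were). At 10 nM and 18 h 7 were higher (63.6%, where 34.1% of all genes were called). The blocked fit gave 8 higher and 1 lower (81.8%, where 56% of all genes were). At 100 pM and 18 h 3 of these fatty acid genes were higher (27.3%, where 10.5% of all genes were called). The blocked fit gave 8 higher and 1 lower (81.8%, where 34.1% of all genes were). ACACA, acetyl-CoA carboxylase, had 335 and 346 CPM at 10 nM and 18 h, against 142 and 133 CPM in vehicle (1.30 ± 0.10, adjusted p = 2.87e-05), and was also higher at 100 pM at 18 h, with 188 and 189 CPM (0.45 ± 0.10, adjusted p = 0.0222).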

How the data were processed

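The deposited table holds whole-number counts of reads per gene symbol, which the authors made from T47D total RNA (Nextera libraries, per the labels). STAR, DESeq2 and the build hg19 are named in the submitters' processing notes with no role or version; no counter, annotation or strand setting is named there or in the labels. All 12 columns were used, and 2709 of 20114 genes had no count.

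From the counts on, R 4.3.3 with edgeR 4.0.16, limma 3.58.1 and DESeq2 1.42.0 was used. Genes kept by filterByExpr (13872) were scaled by TMM and tested with edgeR's quasi-likelihood F test (robust) in 1 fit with a coefficient for each of the 6 groups (6 residual degrees of freedom), and p was adjusted by Benjamini-Hochberg over all genes tested. CPM is the count scaled to the TMM-adjusted library size, fold changes are on the log2 scale, and errors are standard errors from the fit. The test was tried on simulated counts first.

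The members, roles and lists were chosen with earlier results of these data known. All members could be named, other list genes were limited to the 6 with most calls among the 6 dose comparisons (some of these are not reported here), and PGR and FKBP5 were given as a check of response. Of the 12 comparisons, 6 were between doses, 3 between times and 3 between effects at both times.

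Same-numbered libraries deviated together in all 15 pairs of groups (r across genes 0.464 to 0.677, median 0.558). The labels do not say what they share. The main fit, which gave the calls, leaves this pairing out, and the blocked fit takes it in as an alternative. The block lowered the biological coefficient of variation to 0.0678, from 0.163. Within a group, the chi-square over genes was 42 to 64 times its degrees of freedom, so its 2 libraries differed by more than counting noise. It cannot tell separate cultures from 2 preparations of 1 culture, and it did not compare libraries of different groups. Alternatives were other scalings, no filter, DESeq2, the block, fits to 1 time or dose, a threshold of 1.5-fold, and leaving out each library. Overlapping exons were looked up by name in GENCODE v29, and promoters in RefSeq tables of GRCh38.p14; no coordinates were carried between builds. Depth of 34204970 counts or more per library leaves the spread between libraries as the main limit on precision.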

Additional observations from a re-analysis of the deposited data

Results flagged for a closer look

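The 10 nM effect differed between the times by a direct test in 3 members, 9.38% of them where 10.5% of all tested genes differed, so the count is near the background share. It was larger at 18 h than at 6 h by 1.249 on the log2 scale for PMVK, 1.782 for STARD4 and 0.7431 for SOAT1 (edgeR's quasi-likelihood test of the difference, adjusted p = 0.0043, 0.0413 and 0.013). PMVK was higher than vehicle at both times, while both 10 nM libraries of STARD4 and of SOAT1 were below vehicle at 6 h and above it at 18 h.

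The difference of 10 nM from 100 pM also changed with time in 3 members, 9.38% of them where 12.2% of all tested genes differed, by 1.194 for PMVK, 0.6926 for INSIG2 and 0.7537 for SOAT1 (adjusted p = 0.00427, 0.0418 and 0.01). For INSIG2, lower at 10 nM at both times, the gap to 100 pM was the smaller one at 18 h. The 2 sets of tests share the 10 nM libraries. In each, leaving out 1 library lowered the number of all tested genes called. PMVK was called in both without any 1 library, STARD4 lost its call without each of the 8 libraries in turn and INSIG2 without 7 of 8.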

How the results depend on the processing

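No called member changed direction under any alternative run. With the replicate block the members called numbered 3 (100 pM, 6 h), 23 (10 nM, 6 h), 20 (10 nM against 100 pM, 6 h), 12 (100 pM, 18 h), 25 (10 nM against 100 pM, 18 h), 11 and 26 (18 h against 6 h at 100 pM and at 10 nM), and 2, 20 and 17 (differences between times for 100 pM, 10 nM and 10 nM against 100 pM); no call was lost with the block. For 18 h against 6 h at 10 nM DESeq2 called 17 members and a fit to the 10 nM libraries alone 16. Over all genes they called 4077 and 1887, against 3393 in the main fit. For the 10 nM difference between times upper-quartile scaling called 5 members and DESeq2 6. Over all genes they called 1456 and 2316, against 1462 in the main fit. Leaving out 1 library gave 7 to 10 (10 nM, 6 h), 6 to 8 (10 nM against 100 pM, 6 h), 7 to 16 (10 nM, 18 h), 6 to 9 (10 nM against 100 pM, 18 h), 5 to 7 (18 h against 6 h at 10 nM), 1 to 3 and 2 to 3 (differences between times for 10 nM and for 10 nM against 100 pM), and 0 to 0 elsewhere; the lone library left in a group is then assumed to vary like the other groups. Where the main fit called any gene, each fit without 1 library called fewer of all tested genes too. The cause of these shifts was not tested, beyond fewer libraries where 1 was left out. Differences between times could not be fitted to 1 time or dose. Upper-quartile scaling put the median of all genes at -0.147 for 10 nM against vehicle at 6 h, against -0.02 with TMM, and there ACAT2, FDPS and OSBP, not called with either scaling, had negative values in place of positive ones. With no filter on low counts 18 members were called at 10 nM and 18 h, and with a 1.5-fold threshold 20. Over all genes these settings called 4489 and 3184, against 4734 in the main fit. Over the 6 dose comparisons DESeq2 added 8 member calls and lost 0. It called more of all genes too in each of them. For 10 nM against vehicle it called 6169 genes at 6 h and 5218 at 18 h, against 5826 and 4734. For 10 nM against 100 pM it called 5620 and 4225, against 5127 and 3635. For 100 pM against vehicle it called 849 and 2231, against 483 and 1450 in the main fit.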
